A study of Drosophila melanogaster with 36 samples.

Results

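UDP-glycosyltransferases (UGTs) are enzymes, most of them in the membrane of the endoplasmic reticulum, that transfer a sugar from a UDP-sugar to small lipophilic molecules. The products are more soluble and can be exported, so the family belongs to the conjugating phase of detoxification, after oxidation by cytochrome P450 enzymes, and it also acts on endogenous compounds such as pigments and odorants. Insect enzymes use mainly UDP-glucose as donor, where the related vertebrate enzymes use mainly UDP-glucuronic acid. The fat body, with the midgut and the Malpighian tubules, is a main detoxifying tissue of the fly.

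The genes described here are all Drosophila melanogaster genes whose current symbol is Ugt followed by a digit. There were 35 of them in the gene table, each was measured by 1 probe set, and none had more than 1. Of the 18769 probe sets outside the array's controls, 11261 were bright enough to be tested, and 16 of the 35 genes were among them. The other 19 were dim and are described apart.

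RNA came from abdominal fat body of adult males, 10 fat bodies pooled for each array, from flies held for 5 days at 25 °C in cycles with 12 h of light and 12 h of dark. The flies labelled WT had the genotype w; UAS-dnClk/+, so they carried the transgene with no driver named. Those labelled dnClk are given by that name alone, short for dominant-negative Clock, a transcription factor of the circadian clock, and the labels used here name no driver for them. WT was sampled every 2 h over 2 days, with 24 arrays, and dnClk every 4 h over 2 days, with 12 arrays. No time was replicated, so each p-value measures the spread of arrays about a fitted 24 h curve, which may be technical in part. Precision is limited by how many arrays there are. Times are given as ZT, in hours from lights-on of the first day, so that ZT 24 to 46 is the second day.

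Values are deposited intensities on a linear scale, and differences, slopes and amplitudes are on the scale of log2(intensity + 16), which understates changes of dim probe sets. A call is a limma adjusted p under 0.05, after Benjamini-Hochberg adjustment over all tested probe sets. An intensity depends on the probes, so no gene's level is set against another gene's.

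The arrays of the genotypes stood apart beyond the UGT genes. Bacterial hybridisation controls averaged 12.28 ± 0.30 log2 units over the 24 WT arrays and 10.24 ± 0.19 over the 12 dnClk arrays (SD), and the 99th percentile of intensity was 2692 to 4438 in WT and 1593 to 2088 in dnClk. The log2 ratio of 3′ to 5′ probe sets of Act5C, a sign of RNA quality, was 2.57 to 4.42 in WT and 0.93 to 2.08 in dnClk. None of these 3 measures overlapped between genotypes, so the genotypes cannot be told apart from the processing of their arrays in any level difference below. Fat body markers were present in both genotypes and, in the deposited values, lower in dnClk. Their means were 9.83 to 10.7 in WT and 9.08 to 9.34 in dnClk, and 5 of the 6 tested were called lower (apolpp, Lsp2, FASN1, Lsd-1 and Desat1). Fbp1 was dim in both. Markers of oenocytes, cells that lie along the abdominal fat body, averaged 10.1 to 11.1 in WT and 9.32 to 10.2 in dnClk, with 5 of 7 called lower and 1 higher. Haemocyte markers ran from 6.36 to 7.15 in WT and from 8.19 to 8.80 in dnClk, and 6 of 6 were called higher. Accessory gland and ejaculatory tract markers averaged 6.10 ± 0.41 over the WT arrays and 6.81 ± 0.39 over the dnClk arrays (SD), with 7 of 9 called higher. Testis markers ranged from 4.88 to 9.75 in WT and from 6.62 to 9.04 in dnClk, with 1 of 15 called higher. All these marker calls are of the deposited values, where 39.3% of all tested probe sets were called higher and 17.7% lower. Marker directions under other scalings are not given. The part of these shifts in the UGT results was not tested. Slopes and covariate fits below are descriptions, since marker means come from the same arrays and the accessory gland mean differed between genotypes. Fewer cells of a type and less RNA per cell cannot be told apart in such samples.

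Of the 16 tested UGT genes, Ugt36D1 alone was called rhythmic in WT, high from late night through the morning and low in the early night. Its intensity ran from 86.4 at ZT 38, through a median of 413, to 712.7 at ZT 0 over the 24 WT arrays. At ZT 0 to 8 of either day the 10 WT arrays read 389.7 to 712.7, and at ZT 12 to 18 of either day the 8 WT arrays read 86.4 to 219.7. These ranges did not overlap. The fitted amplitude, the distance from mean to peak, was 1.10 ± 0.11 log2 units (SE), which is 4.57-fold from trough to peak. The peak fell at ZT 2.94 ± 0.37 h (SE; limma adjusted p = 3.2e-06).

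The course repeated on both days. At ZT 14 the WT intensity was 135.5 on the first day and 86.4 on the second, and at ZT 22 it was 559.7 and 465.3. A late-afternoon difference stood out at ZT 10, with 533 on the first day and 203.8 on the second. Fitted alone, the 12 arrays of the first day peaked at ZT 3.46 with amplitude 1.02 ± 0.16, which was not called (limma adjusted p = 0.10). The 12 of the second peaked at ZT 2.50 with amplitude 1.20 ± 0.11, which was called (limma adjusted p = 0.0047). Without any 1 of the 24 WT arrays the amplitude stayed between 1.04 and 1.13 and was called. At the 12 times shared with dnClk it was 1.11 ± 0.12 (limma adjusted p = 0.013), and there the call was lost without the array at ZT 16, 28 or 40.

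Rhythm calls were rare in these arrays. In WT, 78 of the 11261 probe sets were called rhythmic, or 0.693%, against 1 of the 16 UGT genes. Leaving out 1 WT array gave 55 to 215 calls over all probe sets, the 215 (1.91%) being without ZT 36. At the shared times 10 were called, or 0.0888%, and Ugt36D1 was again the 1 UGT gene among them. Among the 8473 named genes tested, Ugt36D1 held rank 7 by the p-value of the WT rhythm and rank 140 by amplitude. Ugt36D1 was singled out with these results known, so this is a description.

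**Figure D1:**
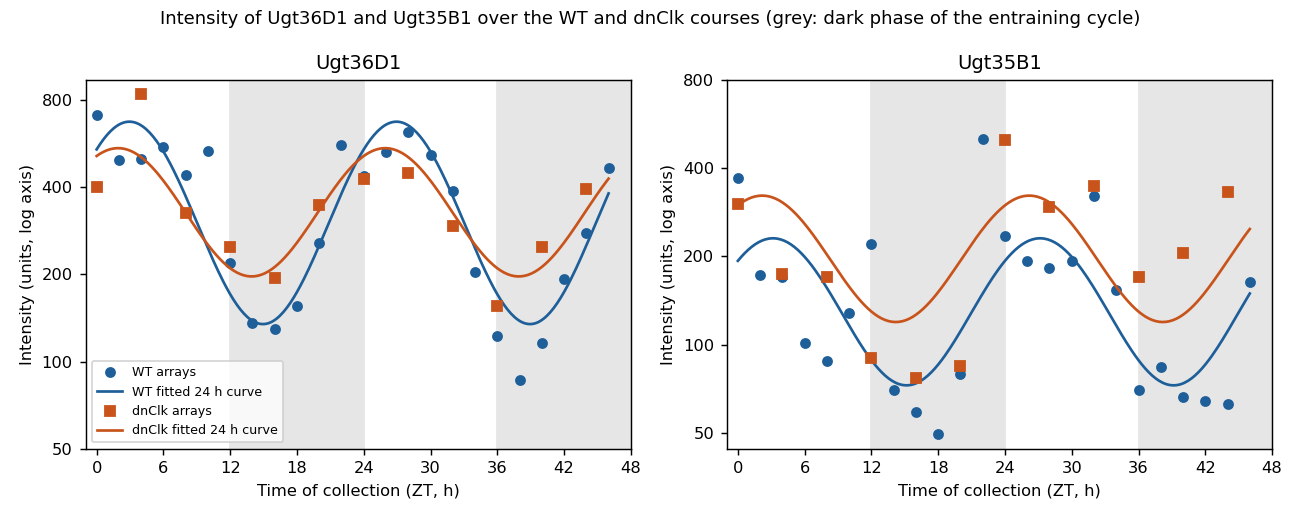
Intensity of Ugt36D1 (left) and Ugt35B1 (right) on a log axis against time of collection in ZT hours, with WT arrays as circles, dnClk arrays as squares and the fitted 24 h curves as lines. Ugt36D1 in WT falls below 220 at ZT 12 to 18 on both days, and its fitted dnClk curve is shallower, with an amplitude of 0.70 against 1.10 log2 units.

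In dnClk the same transcript followed a similar course that did not pass the test. Intensity ran from 155.1 at ZT 36, through a median of 337, to 839.4 at ZT 4 over 12 arrays. The 4 arrays at ZT 0, 4, 24 and 28 read 399.7 to 839.4, and the 4 at ZT 12, 16, 36 and 40 read 155.1 to 249.5, without overlap. The fitted amplitude was 0.70 ± 0.13, or 2.64-fold, with a peak at ZT 1.93 ± 0.71 h (limma unadjusted p = 0.00070, adjusted p = 0.52). By limma, 0 of the 16 UGT genes were called rhythmic in dnClk, and Ugt36D1 was the 1 with an unadjusted p under 0.05. Of all probe sets 4 were called, or 0.0355%. On the 6 arrays of the second day alone the amplitude of 0.67 ± 0.11, peaking at ZT 0.67, was called (limma adjusted p = 0.042), and on those of the first 0.80 ± 0.19 was not. Without the array at ZT 4 the dnClk amplitude was 0.57.

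A loss of the rhythm in dnClk was not shown by the test of the difference. The joint fit gave an unadjusted p of 0.053 and an adjusted p of 0.98 (limma). The amplitude was lower in dnClk by -0.40 ± 0.18 log2 units (dnClk minus WT, SE; 95% interval -0.77 to -0.03), and by -0.41 at the shared times (95% interval -0.79 to -0.03). That interval belongs to 1 gene picked with its values known, and it was computed after the data were seen. The peaks differed by -1.02 ± 0.88 h. No UGT gene was called different in rhythm by limma, and 0 of the 16 had an unadjusted p under 0.05. Over all probe sets 0 were called, or 0%, with 183 at an unadjusted p under 0.05. The mean level of Ugt36D1 differed by 0.10 ± 0.13 between genotypes (limma adjusted p = 0.50).

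The remaining 15 tested genes had WT amplitudes from 0.06 to 0.74 with a median of 0.20, and 13 of them lay under 0.35. Over all 16 the median was 0.20 in WT and 0.13 in dnClk, beside 0.13 and 0.12 over all tested probe sets. Of the 16, 5 had an unadjusted p under 0.05 in WT: Ugt36D1, Ugt35B1, Ugt37D1, Ugt301D1 and Ugt317A1. Over all tested probe sets 993 did, or 8.82%.

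**Figure D2:**
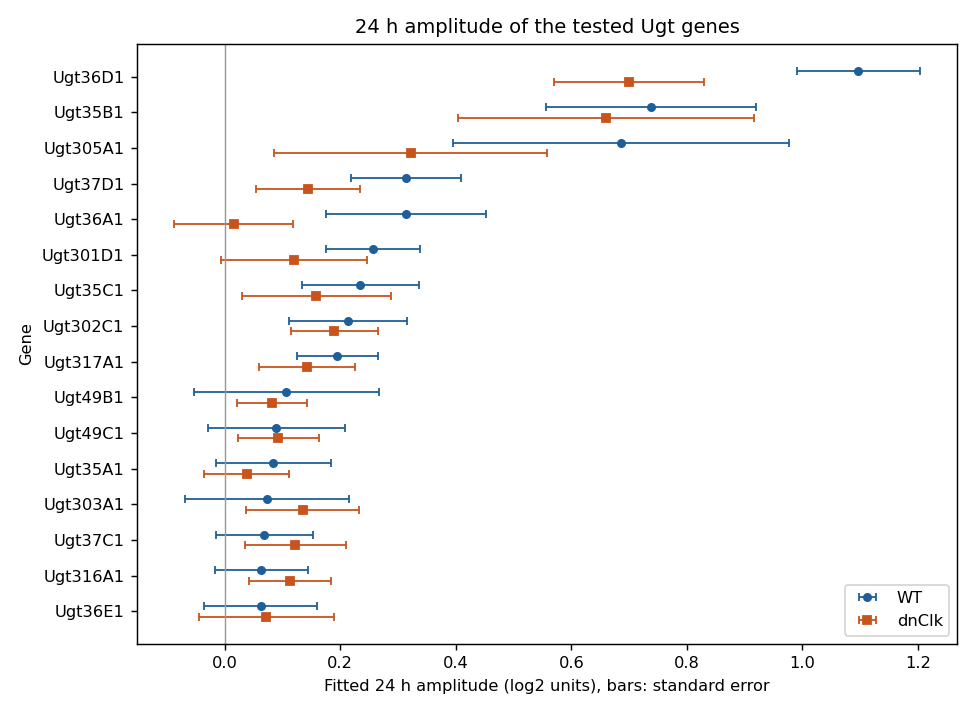
Fitted 24 h amplitude in log2 units (horizontal axis) of the 16 tested UGT genes, with WT as circles, dnClk as squares and bars for the standard error. Ugt36D1 stands at 1.10 in WT, followed by Ugt35B1 at 0.74 and Ugt305A1 at 0.69, and 13 genes lie under 0.35.

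Ugt35B1, a gene first described for its expression in the antenna, came next to Ugt36D1 in amplitude and in time of peak. Its WT intensity ran from 49.5 at ZT 18, through a median of 141, to 500.8 at ZT 22. The curve peaked at ZT 3.15 ± 0.94 h with amplitude 0.74 ± 0.18, and it was not called (limma unadjusted p = 0.0020, adjusted p = 0.14). With terms of 12 h period added, a joint test of the 24 h and 12 h terms made a call. It is not a call of the 24 h curve alone. WT arrays at ZT 14 to 20 read 49.5 to 79.4 on the first day and 62.7 to 83.8 on the second, below every WT array at ZT 0 to 10 of either day, which read 87.9 to 371. The time-to-time scatter was large, since adjacent arrays at ZT 20 and 22 read 79.4 and 500.8.

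Across the 24 WT arrays, Ugt35B1 had the highest correlation with Ugt36D1 among the UGT genes, with Pearson's r = 0.70 and Spearman's rho = 0.68 on the log2 scale, and r = 0.69 without the 2 arrays whose Ugt36D1 value lay farthest from the median. The other 14 tested genes had r between -0.46 (Ugt37D1) and 0.36 (Ugt302C1) in WT, and Ugt302C1 had 0.57 without those 2 arrays. In the 12 dnClk arrays Ugt35B1 was not the gene with the highest value: r was 0.38, below 0.67 for Ugt302C1, 0.52 for Ugt316A1 and 0.41 for Ugt37D1. These values describe arrays that share each library's scaling and time of collection.

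In dnClk, Ugt35B1 had an amplitude of 0.66 ± 0.26 (limma adjusted p = 0.86), with intensities of 76.7, at ZT 16, to 497.1, at ZT 24, and a median of 190. Its dnClk level was higher on the second day at 6 of 6 clock hours, at 170.5 to 497.1 against 76.7 to 301.3 on the first. The tubule marker means of the dnClk arrays were 6.47 to 7.01 on the first day and 7.12 to 7.74 on the second, without overlap, and their part in this difference was not tested. A day term was fitted only in WT, where Ugt35B1 differed by -0.02 ± 0.26 (second minus first day; limma adjusted p = 0.96).

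Other WT curves were shallow or scattered. Ugt305A1 peaked at ZT 3.90 with an amplitude of 0.69 ± 0.29 (limma adjusted p = 0.63). Its array-to-array changes are given with the testis markers below. Ugt37D1 peaked at ZT 15.3 with an amplitude of 0.31 ± 0.09 (limma adjusted p = 0.32), and Ugt301D1 at ZT 12.7 with 0.26 ± 0.08 (limma adjusted p = 0.37). The peak of Ugt37D1 fell in the dark phase (SE 1.15 h), and that of Ugt301D1 lay within its SE of 1.21 h of lights-off. Both genes were called when the WT array at ZT 36 was left out, where the calls over all probe sets rose from 78 to 215. Ugt317A1 had an amplitude of 0.20 ± 0.07 (limma adjusted p = 0.51). Ugt35C1, earlier named Ugt86Dd and known from mapping of nicotine resistance in flies, had 0.23 ± 0.10 (limma adjusted p = 0.63).

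**Figure D3:**
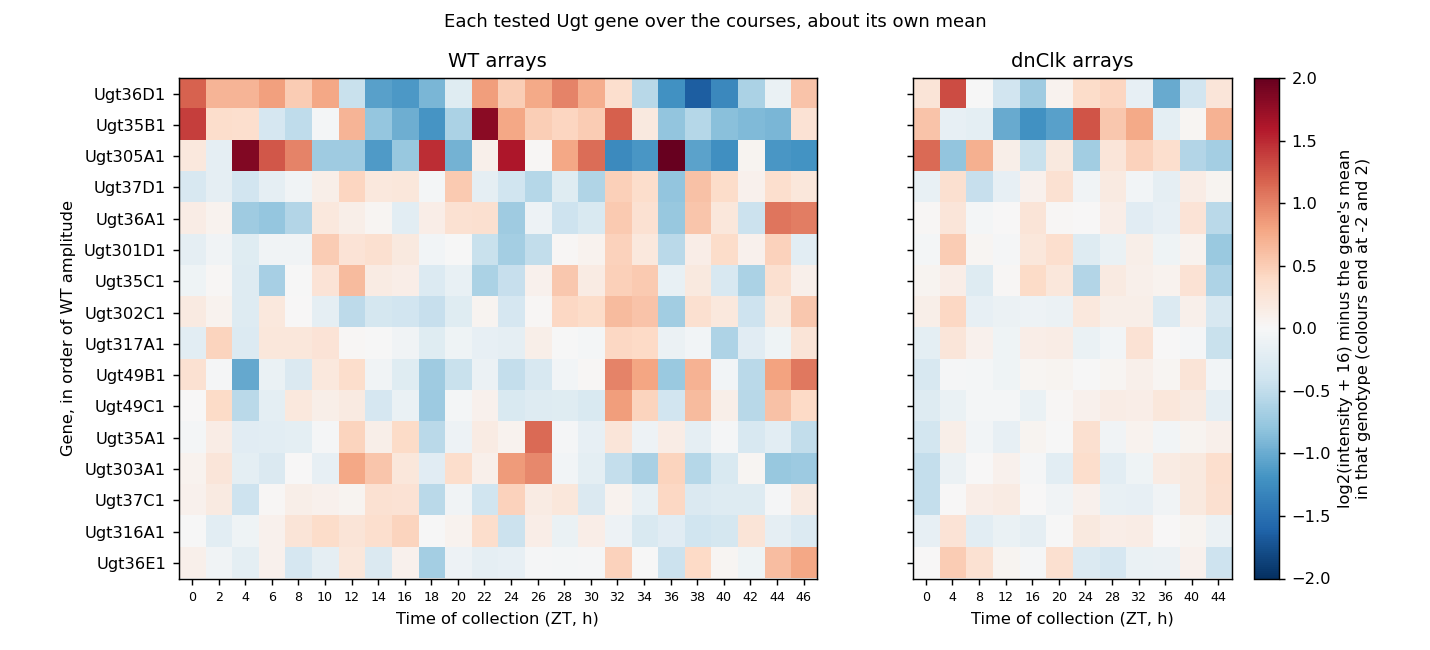
log2(intensity + 16) of each tested UGT gene (rows, in order of WT amplitude) on each array (columns, by time of collection in ZT hours), minus the gene's mean in that genotype, for WT (left) and dnClk (right). Ugt36D1 alternates between high and low blocks on both WT days, while Ugt305A1 changes between neighbouring times, from 8.6 intensity units at ZT 32 to 234.6 at ZT 36.

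Many UGT genes lie side by side in the genome. In the gene table of assembly Release 6, 22 of the 35 formed 7 runs of directly adjacent genes, and 13 had no UGT neighbour. Ugt36D1 lay between Ugt36F1 and Ugt36E1. Ugt36E1, known in flies for a role in olfactory neurons, had a WT amplitude of 0.06 ± 0.10 (limma adjusted p = 0.96), and Ugt36F1 was dim, at 3.9 to 26.9 in WT. Ugt35B1 lay beside Ugt35A1, whose WT amplitude was 0.08 ± 0.10 (limma adjusted p = 0.94). Rhythm calls were thus not shared by the measured neighbours of Ugt36D1, though the difference in rhythm between neighbours was not tested.

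The mean level differed between genotypes for 10 of the 16 genes, 7 higher and 3 lower in dnClk. Over all probe sets 39.3% were called higher and 17.7% lower, so such calls were common. The median difference was 0.35 log2 units over the 16 genes and 0.25 over all tested probe sets. The split moved with the scaling, to 4 higher and 4 lower after quantile normalization. Centring each array on its median gave 3 and 4, and scaling to the hybridisation controls gave 16 and 0. Among all tested probe sets the shares higher and lower were 20.4% and 26% with quantile normalization, 11.5% and 33.9% with centring, and 98.4% and 0.657% with control scaling. Those scalings moved the median over all probe sets to -0.01, -0.14 and 1.97, so differences of the 10 called genes are also given relative to the deposited median. Those not given below were 0.53 for Ugt49C1, 0.35 for Ugt37D1, 0.28 for Ugt35B1 and 0.25 for Ugt316A1. They were -0.74 for Ugt36E1 and -0.66 for Ugt303A1.

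Ugt317A1 rose most. Its intensities were 17.5, 33.8 and 54.4 (lowest, median and highest) in WT and 88.6, 126 and 159 in dnClk. Every dnClk array lay above every WT array. The difference was 1.47 ± 0.08 (SE), or 2.77-fold, 1.22 above the median of all probe sets (limma adjusted p = 4.9e-17). It was the 1 UGT gene of the 16 whose genotypes did not overlap, beside 6.3% of all probe sets with dnClk above WT and 4.4% with dnClk below.

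Ugt35A1 read 153.6, 224 and 523.6 in WT and 352.5, 465 and 574 in dnClk. The genotypes overlapped through 1 WT array, that at ZT 26 with 523.6, since the next WT array read 319. The difference was 0.94 ± 0.11, or 1.92-fold, and 0.69 above the median of all (limma adjusted p = 4.6e-09).

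Ugt302C1 read 86.8, 155 and 241.5 in WT and 224.2, 284 and 382.3 in dnClk. Ranges overlapped narrowly, between 224.2 and 241.5. The gene was 1.81-fold higher in dnClk, by 0.85 ± 0.11, which is 0.60 above the median of all (limma adjusted p = 5.3e-08).

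Calls for Ugt317A1, Ugt35A1 and Ugt302C1 were also made under quantile normalization, median centring and control scaling. For Ugt302C1 the centred value was 0.46 (limma adjusted p = 0.049). Ugt317A1 was the most raised UGT gene under each of the 4 scalings, at 1.47, 1.11, 1.08 and 3.14.

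Ugt49C1 read 47.7, 88.1 and 172.1 in WT and 135.4, 165 and 196.8 in dnClk, a difference of 0.78 ± 0.13, or 1.72-fold (limma adjusted p = 2.9e-06). It was not called after median centring (0.39, limma adjusted p = 0.11). Ugt37D1 read 51.9, 103 and 159.9 in WT and 113, 161 and 204.3 in dnClk, a difference of 0.60 ± 0.11, or 1.52-fold (limma adjusted p = 1.1e-05). It was not called under quantile normalization (0.33, limma adjusted p = 0.053) or median centring (0.21, 0.36). The ranges of both genes overlapped between genotypes.

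Ugt316A1 and Ugt35B1 completed the raised genes. Ugt316A1 differed by 0.50 ± 0.09, or 1.41-fold (limma adjusted p = 1.0e-05), and was not called under quantile normalization (0.20) or median centring (0.11). Ugt35B1 differed by 0.53 ± 0.23, or 1.45-fold, and its call was marginal (limma adjusted p = 0.047). It was lost without any 1 of 25 of the 36 arrays (adjusted p from 0.013 to 0.11 over all 36), and with Malpighian tubule and midgut marker means as covariates the difference was 0.27 (limma adjusted p = 0.25). With testis and accessory gland covariates it was 0.45 (limma adjusted p = 0.24), and with a pseudocount of 64 in place of 16 it was 0.41 (limma adjusted p = 0.053). The tubule markers averaged 6.73 ± 0.65 over the WT arrays and 7.11 ± 0.44 over the dnClk arrays (SD), which did not pass (permutation p = 0.078), with 1 of 7 called higher.

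Lower in dnClk were Ugt49B1, Ugt36E1 and Ugt303A1 in the deposited values. They were also called lower under quantile normalization, at -0.88, -0.80 and -0.78, and median centring, at -1.24, -0.87 and -0.79. Each was higher when arrays were scaled to the hybridisation controls, by 1.12, 1.11 and 1.10, where the median of all was 1.97. Ugt49B1 read 305.9, 609 and 1337.2 in WT and 274.6, 349 and 417.1 in dnClk. Only the lower part of the WT range overlapped the dnClk arrays. The difference was -0.85 ± 0.17, or 1.80-fold lower (limma adjusted p = 6.2e-05), -1.10 relative to the median of all. With testis and accessory gland covariates it was -0.48 (limma adjusted p = 0.0072).

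Ugt36E1 read 34.5, 62.9 and 122.2 in WT and 27.2, 41.4 and 66.1 in dnClk, a difference of -0.48 ± 0.12, or 1.40-fold lower (limma adjusted p = 0.00062). With testis and accessory gland covariates it was not called (-0.30, limma adjusted p = 0.057). Ugt303A1 read 23.1, 49 and 112.9 in WT and 19.8, 33.8 and 47.8 in dnClk, a difference of -0.40 ± 0.15, or 1.32-fold lower (limma adjusted p = 0.025). With the testis and accessory gland covariates it was -0.91 (limma adjusted p = 2.0e-05). Without the dnClk array at ZT 0 it was -0.36 (limma adjusted p = 0.052). The genotypes overlapped for both. Probe sets of Ugt36E1 and Ugt37D1, like that of the dim Ugt50B3, carry the array's mark for probes that match more than 1 transcript, so part of their signal may come from another transcript.

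**Figure D4:**
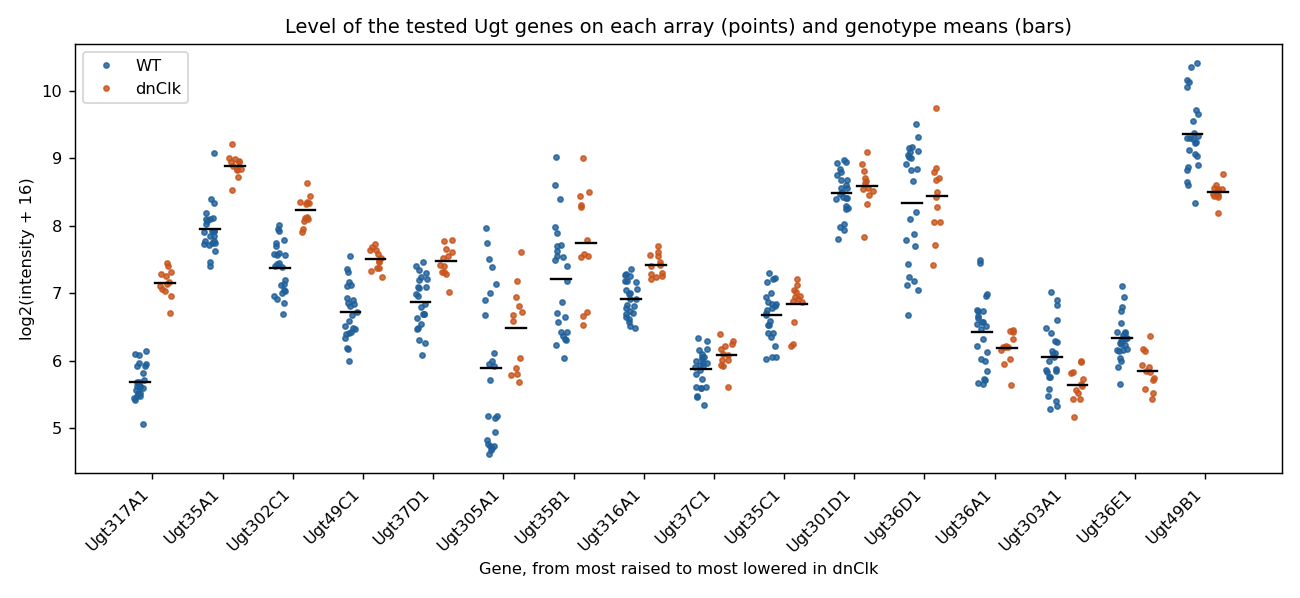
log2(intensity + 16) of the 16 tested UGT genes, with 1 point for each WT array and each dnClk array and a bar at each genotype's mean, in order of the difference. Ugt317A1 at the left has no overlap between genotypes, and Ugt49B1 at the right spreads from 305.9 to 1337.2 intensity units in WT but only from 274.6 to 417.1 in dnClk.

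Adjacent genes did not always move alike. Ugt49B1 and Ugt49C1 lie side by side, and in the deposited values Ugt49B1 was lower and Ugt49C1 higher in dnClk, although both were higher under control scaling. In the run that holds Ugt35B1, Ugt35A1 and Ugt303A1, the first 2 were called higher and Ugt303A1 lower, again with Ugt303A1 higher under control scaling. Differences between neighbours were not themselves tested.

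No call was made for the other 6 tested genes. Their differences were 0.58 ± 0.33 for Ugt305A1, 0.21 ± 0.09 for Ugt37C1, 0.16 ± 0.12 for Ugt35C1, 0.11 ± 0.10 for Ugt301D1 and -0.24 ± 0.15 for Ugt36A1, beside that of Ugt36D1 given above. Ugt36A1 was called lower under quantile normalization (-0.56, limma adjusted p = 0.018) and median centring (-0.63, limma adjusted p = 0.021), and higher under control scaling (1.42).

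Several UGT genes moved with the testis marker signal of their array. Ugt305A1, which the gene table also lists under the older name Tes36, read 8.6 at ZT 32, a median of 40.4 and 234.6 at ZT 36 in WT, and ZT 36 was the WT array with the most testis signal, at 9.75. In dnClk it read 35.4, 83.1 and 179.9, the highest at ZT 0, where the testis signal was also the highest of that genotype, at 9.04. Its slope on the testis mean was 0.64 ± 0.06 log2 units per log2 unit in WT (limma adjusted p = 2.2e-10). Slopes above 0 were called for 18.3% of all probe sets and for this 1 UGT gene.

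A slope below 0 was called for 8 of the 16, namely Ugt49B1, Ugt36A1, Ugt49C1, Ugt36E1, Ugt302C1, Ugt37D1, Ugt35C1 and Ugt301D1, beside 25.4% of all probe sets. The steepest were those of Ugt49B1, at -0.29 ± 0.05 (limma adjusted p = 8.0e-05), and Ugt36A1, at -0.25 ± 0.04 (limma adjusted p = 6.5e-05). The others ran from -0.20 to -0.10. Ugt49B1 was thus lower on arrays with more testis signal, and its WT spread of 0.56 log2 units (SD, n = 24) compared with 0.13 in dnClk (SD, n = 12). Ugt36D1 had a slope of -0.04 ± 0.05 (limma adjusted p = 0.58), and its rhythm call was also made with testis and accessory gland covariates, at an amplitude of 1.15. Quantile normalization and median centring moved the median slope of all probe sets from -0.0023 to -0.09 and -0.16, and gave 13 and 14 UGT genes below 0, with Ugt305A1 above 0 in both, at 0.60 and 0.59. The share of all probe sets called below 0 there is not given, so these counts are not read as a result about UGT genes. Ugt36D1 was among the 14 after median centring, at -0.19 (limma adjusted p = 0.024), close to that median of -0.16.

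**Figure D5:**
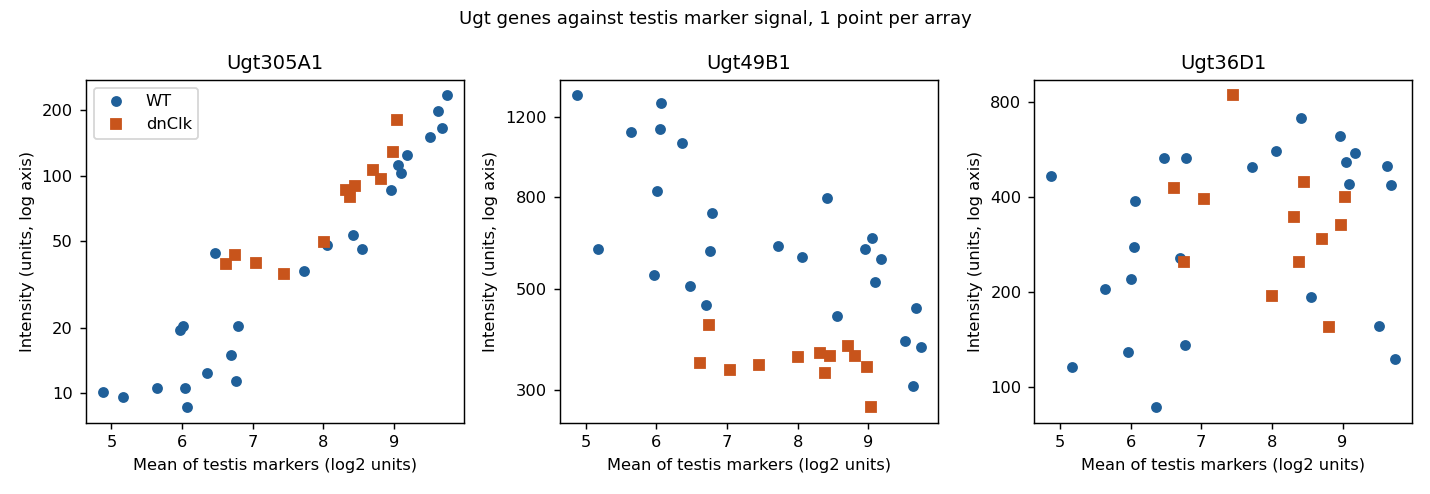
Intensity on a log axis of Ugt305A1, Ugt49B1 and Ugt36D1 against the mean of the testis markers in log2 units, 1 point per array, with WT as circles and dnClk as squares. Ugt305A1 climbs with the testis signal in both genotypes, Ugt49B1 declines with it in WT, and the WT slope of Ugt36D1, -0.04 in the deposited values, was not called.

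Signals of tubule and midgut gave no UGT call. By limma, 0 of the 16 genes had a called slope on the tubule markers, with 4 at an unadjusted p under 0.05 (Ugt302C1, Ugt303A1, Ugt316A1 and Ugt35B1), beside 26.8% of all probe sets at that unadjusted threshold. Called slopes made up 0.932% of all probe sets above 0 and 0.0266% below. On the midgut markers 0 were called and 8 had an unadjusted p under 0.05, as did 28.7% of all probe sets, and 0.249% of all were called above 0 and 0.0622% below. The slope of Ugt35B1 on the tubule markers was 0.54 ± 0.17 (limma adjusted p = 0.18). Ugt36D1 had 0.13 ± 0.12 on tubule and 0.03 ± 0.10 on midgut markers, and its amplitude with both as covariates was 1.07 (limma adjusted p = 2.1e-05).

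No UGT gene was called different between the WT days. By limma, 0 of the 16 were called higher or lower on the second day, and 2 had an unadjusted p under 0.05, namely Ugt302C1, at 0.31 ± 0.13, and Ugt316A1, at -0.31 ± 0.09 (second minus first; limma adjusted p = 0.19 and 0.079). At an unadjusted p under 0.05 the days differed for 20.8% of all probe sets. Of all probe sets 0.391% were called higher and 1.96% lower on the second day. Each of these 2 genes was called without certain WT arrays, Ugt302C1 without ZT 36 and Ugt316A1 without ZT 26 or without ZT 42.

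The 19 dim genes were Ugt302E1, Ugt302K1, Ugt303B1, Ugt303B2, Ugt303B3, Ugt304A1, Ugt307A1, Ugt35D1, Ugt35E1, Ugt35E2, Ugt36F1, Ugt37A1, Ugt37A2, Ugt37A3, Ugt37B1, Ugt37C2, Ugt37E1, Ugt49B2 and Ugt50B3. Their intensities lay between 0.3 and 61.2 in WT and between 2.4 and 60.8 in dnClk, and their medians between 1.45 and 26.95 in WT and between 5.55 and 39.75 in dnClk. With no filter, none of the 19 was called rhythmic by limma, with 0 at an unadjusted p under 0.05 in WT and 1 in dnClk, and 7 were called higher in dnClk (Ugt37C2, Ugt37E1, Ugt50B3, Ugt37A1, Ugt35E2, Ugt49B2 and Ugt307A1), where 38.6% of 18769 probe sets were. Without the filter 0.336% of all were called rhythmic in WT and 0.0213% in dnClk. None of the 19 was called lower by limma, beside 11.3% of all, and 0 were lower at an unadjusted p under 0.05.

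Ugt37C2 had the largest difference among the dim genes. It read 4.7, 13.95 and 24 in WT and 26.9, 39.75 and 60.8 in dnClk, with no overlap. The share of all probe sets without overlap is not given for the unfiltered set, nor are values of this gene under other scalings. The difference was 0.93 ± 0.10, or 1.90-fold (limma adjusted p = 2.1e-09, without a filter). It lies in a run with Ugt37E1, called higher at 0.35 ± 0.09, and with Ugt37D1, called higher at 0.60 above. Ugt37B1 ran from 0.8 to 45.6 in WT and from 3.6 to 9.9 in dnClk, and its difference of -0.27 was not called (limma adjusted p = 0.094).

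Enzymes and transporters of UDP-sugar supply were described from a list of 10 genes, of which 8 were tested. In dnClk 4 were lower (Pgm1, Galt, Galk and Efr) and 1 higher in the deposited values, beside 17.7% and 39.3% of all probe sets. The other 3 were not called (UGP, sgl and Uxs). Quantile normalization gave the same 4 lower and 0 higher, beside 26% and 20.4% of all. Median centring gave 5 lower, with UGP added, and 0 higher, beside 33.9% and 11.5%. Control scaling gave 6 higher, with UGP and Efr among them, and Pgm1 as the 1 lower, beside 98.4% and 0.657% of all. Pgm1, a phosphoglucomutase that makes glucose 1-phosphate, was 5.18-fold lower at -2.37 ± 0.12 (limma adjusted p = 1.1e-17). Galt, of galactose breakdown, was 3.30-fold lower at -1.72 ± 0.16 (limma adjusted p = 5.1e-11), and Efr, a nucleotide-sugar transporter, was 1.85-fold lower at -0.89 ± 0.07 (limma adjusted p = 2.1e-12). UGP, which makes UDP-glucose itself, differed by -0.18 ± 0.15 in the deposited values (limma adjusted p = 0.31), and its call moved with the scaling. The list's median was -0.54 beside 0.25 over all tested probe sets, and fat body markers had a median of -1.37. By limma, 0 of the 8 were called rhythmic in WT, and 1 had an unadjusted p under 0.05.

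Regulators and export pumps of detoxification were described from a list of 12, of which 10 were tested. In dnClk 4 were higher and 3 lower in the deposited values, beside 39.3% and 17.7% of all probe sets, and 3 were not called. Quantile normalization gave 3 higher and 4 lower, beside 20.4% and 26% of all, and median centring 2 and 4, beside 11.5% and 33.9%. Lower in both were cnc, maf-S, Hr96 and Mdr65. Control scaling gave 10 higher, where 98.4% of all were. Mdr49 and Mdr50 were called higher under each of the 4 scalings. Mdr49 and Mdr50, ABC transporters of the P-glycoprotein type, were 11.9-fold and 7.24-fold higher, at 3.58 ± 0.09 (limma adjusted p = 1.8e-26) and 2.86 ± 0.15 (limma adjusted p = 3.9e-17). Their relative Mdr65 differed by -0.33 ± 0.12 (limma adjusted p = 0.021). The transcription factor partner genes cnc and maf-S, which act in the oxidative and xenobiotic response, differed by -0.54 ± 0.09 (limma adjusted p = 1.1e-05) and -0.35 ± 0.05 (limma adjusted p = 9.3e-07). The list's median was 0.16, and 0 of its 10 tested genes were called rhythmic in WT by limma, with 1 at an unadjusted p under 0.05.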

How the data were processed

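Transcript levels were measured in 36 pooled fat body samples on Affymetrix expression arrays. Each deposited value is the intensity of a probe set, linear in scale. The submitters' processing notes name MAS5 as the authors' tool, with no version stated, and the values had a trimmed mean of 150 on every array (2% off each end). All 36 columns matched a sample by name. Gene names came from the platform annotation, updated by gene number through a gene table of assembly Release 6, in which 13544 of 13647 probe sets with 1 symbol were found. No UGT symbol changed, and no coordinates or sequences are given.

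The 183 control probe sets were set aside, and the 60% of the others with the highest mean log2(intensity + 16) were tested, down to a mean of 32.0 units. limma 3.58.1 in R 4.3.3 fitted a cosine and a sine of 24 h in each genotype, and both jointly with a genotype term, with moderated tests whose spread follows intensity. Added terms in WT were the day and the array mean of the testis, tubule or midgut markers. Adjustment was Benjamini-Hochberg over all 11261 probe sets, and errors of amplitude and peak are delta-method standard errors. The 11 array measures were compared by two-sided permutation tests of 100000 draws. Alternatives were pseudocounts of 1 and 64, no filter, other scalings, tissue covariates, 12 h terms, each day alone, a shared spread, the shared times with time as a block, and each array left out. The fits were tested on simulated data.

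Every UGT gene was named. Values of single arrays were given for Ugt36D1 and for any gene called in rhythm. The lowest, median and highest intensities were given for the 5 most raised and the 3 lowered genes called in level. Values of Ugt35B1, Ugt305A1 and Ugt37C2, of neighbouring genes and of UGP, cnc and Mdr65 were added after they were seen, as were the tubule and midgut terms. Members and lists were chosen with earlier results of these data known.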

Additional observations from a re-analysis of the deposited data

How the results depend on the processing

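The count of UGT genes called higher in dnClk was 13 with no filter, 4 under quantile normalization, 3 after median centring and 16 under control scaling. Control scaling gave 0 lower, and it reversed Ugt303A1 (1.10), Ugt36E1 (1.11) and Ugt49B1 (1.12). They were called higher there, as were 98.4% of all probe sets, but lower under quantile normalization and median centring. With the shared times and time as a block the counts were 6 higher and 3 lower, the call of Ugt35B1 being lost. With testis and accessory gland covariates 7 were higher, with Ugt301D1 in place of Ugt35B1, and 2 lower. A joint test of 24 h and 12 h terms called 2 in WT (Ugt35B1 and Ugt36D1). WT rhythm calls numbered 2 with testis and accessory gland covariates (Ugt302C1 and Ugt36D1), 0 on the first day alone, and 1 to 3 without single arrays. At the shared times they numbered 0 after median centring, with 12 h terms and with tubule and midgut covariates (added after seeing the data), and 0 to 1 without single arrays. In dnClk the second day alone, with 6 arrays, gave 2 (Ugt305A1 and Ugt36D1). Slopes above 0 on the testis markers numbered 2 with no filter, adding the dim Ugt303B1, and slopes below 0 numbered 13 under quantile normalization and 14 after median centring. The share over all probe sets is not given for the time-block, covariate, 12 h and single-day fits and these slopes. Their counts are thus not read as results about UGT genes. Calls on the WT day term numbered 0 to 1 without single arrays. The 0 calls of different rhythm stood under every alternative run. The cause of these changes was not tested. No gene had more than 1 probe set, so that alternative gave no value. Dim probe sets and single arrays per time limit the amplitudes that could be called.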
